A study of Mus musculus with 10 samples.

Results

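The 10 genes described here are feedback inhibitors and transcriptional outputs of the ERK pathway: the phosphatases Dusp4, Dusp5 and Dusp6, the inhibitors Spry2, Spry4, Spred1 and Spred2, the transcription factors Etv4 and Etv5, and Phlda1. They were taken by symbol from a table of raw RNA-seq counts that holds 24421 genes, and all 10 were in it. Total RNA came from frozen pieces of the pancreas tail of female mice aged 12 weeks, 1 library a mouse. All mice carried Ptf1aCreER, a tamoxifen-inducible Cre recombinase placed under Ptf1a, a gene of acinar cells, and nTnG, a Cre-dependent nuclear fluorescent reporter. What set the groups apart was Insr, the gene of the insulin receptor: 3 libraries came from mice with no floxed allele (WT, Insr w/w), 3 from mice with 1 floxed allele (Het, Insr w/f) and 4 from mice with both alleles floxed (KO, Insr f/f). The labels count 1 more WT mouse, which was not analysed here. Cre from Ptf1a acts in acinar cells and not in the ducts, islets, stroma and immune cells that a tissue piece also holds, and the labels do not give the tamoxifen schedule.

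Receptor tyrosine kinases, the insulin receptor among them, activate RAS proteins, which start the RAF, MEK and ERK kinase cascade. Active ERK phosphorylates transcription factors, and these raise the expression of genes whose products then damp the cascade. The DUSP phosphatases take phosphate off ERK itself, whereas Sprouty and Spred proteins act further up, between the receptor and RAF. The levels of such genes are therefore often read as a record of recent ERK output. In the pancreas, ERK signalling is best known for its part in the change of acinar cells into duct-like cells.

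The libraries held 11718559 to 19024351 gene counts, of which 427 to 6130 fell on the 10 genes. Digestive enzyme genes, the defining genes of acinar cells, took 62.3% to 77.3% of the gene counts in the KO libraries and 71.2% to 76.1% in the Het libraries. In the WT libraries they took 71.4%, 58.3% and 15.7%, so that WT-2404 stood far apart from the other 9 libraries. Because these few genes fill most of a library, levels are given as CPM, counts scaled to a common library total, after trimmed-mean (TMM) scaling, which sets libraries to a common level for the bulk of their genes. Insr, the targeted gene, had 253 to 1259 counts a library with ranges that overlapped between KO and WT (log2 fold change 0.09, SE 0.26, edgeR adjusted p = 0.864). The labels do not say which exons were floxed, and the count of a whole gene in a mixed tissue does not check the deletion. In such bulk tissue, fewer cells of a type and less RNA per cell cannot be told apart.

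Promoter sequences are shown first for 3 genes, to set beside their levels 2 inhibitors with close fold changes for KO against WT, Dusp6 and Spred1, and 1 whose levels were close in all groups, Dusp5. They are RefSeq promoters on GRCm38.p6, cut to the 250 bases before the RefSeq start. Windows of 6 of the 10 genes were examined, and none of Dusp4, Spry4, Etv4 or Phlda1. For Dusp5 the first 214 of the 250 bases are printed, because GENCODE places an exon of Dusp5 in the bases that follow, next to the start. Capitals mark the letters CGGAAG or, on the other strand, CTTCCG, 1 form of the site read by ETS transcription factors. They also mark CArG boxes, the site of serum response factor. Other forms of the ETS site were not searched and stay in small letters. Dusp6 lies at chr10:99262981-99263230, Spred1 at chr2:117120821-117121070 and Dusp5 at chr19:53528895-53529108, all on the plus strand.
Dusp6: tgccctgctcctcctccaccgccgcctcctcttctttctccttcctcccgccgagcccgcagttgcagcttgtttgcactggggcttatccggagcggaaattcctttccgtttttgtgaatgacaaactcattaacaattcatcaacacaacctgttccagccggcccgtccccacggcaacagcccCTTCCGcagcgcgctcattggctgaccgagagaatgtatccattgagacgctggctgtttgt
Spred1: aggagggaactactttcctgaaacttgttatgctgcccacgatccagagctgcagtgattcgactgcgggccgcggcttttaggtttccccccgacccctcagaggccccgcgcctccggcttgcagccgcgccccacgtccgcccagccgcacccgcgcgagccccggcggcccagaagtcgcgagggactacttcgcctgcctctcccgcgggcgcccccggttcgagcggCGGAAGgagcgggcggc
Dusp5: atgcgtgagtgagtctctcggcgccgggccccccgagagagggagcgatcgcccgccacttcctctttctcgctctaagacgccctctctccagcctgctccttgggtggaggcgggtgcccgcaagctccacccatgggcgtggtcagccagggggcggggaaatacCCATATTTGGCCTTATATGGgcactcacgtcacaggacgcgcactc

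Positions count back from the RefSeq start, which for Dusp5 lies beyond the end of the printed letters. The marked form of the ETS site lay 62 to 57 bases before the start of Dusp6 and 17 to 12 bases before that of Spred1. The window of Spred2, not printed, held it 43 to 38 bases before the start. Of 32851 promoter windows of 250 bases, 13.6% held CGGAAG on either strand. The Dusp5 window held a pair of adjoining CArG boxes, 82 to 73 and 72 to 63 bases before the start, and 1.47% of the windows held at least 1 CArG box. The other searches, on both strands, were for TGACGTCA, the CRE site, found in 1.55% of windows, and for TGANTCA, the AP-1 site, found in 6.75%. Neither was found in the windows examined, which covered 6 of the 10 genes. The windows of Spry2 and Etv5, not printed, held none of the motifs searched. These matches describe letters in a window and are not measured binding sites.

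The phosphatase genes differed among themselves. Dusp4, a nuclear phosphatase of ERK and other MAP kinases at chr8:34807610-34819894, stood at 4.19, 3.28 and 1.72 CPM in WT-2404, WT-1860 and WT-2067. The Het libraries gave 1.23, 0.466 and 1.90 CPM, and the KO libraries 1.67, 0.132, 1.06 and 0.303 CPM. Every KO library was below every WT library, by a narrow margin between KO-2079 and WT-2067, and Het overlapped both. The 2 lowest KO values rest on 1 and 3 counts. The log2 fold change of KO against WT was -1.84 (SE 0.64), with an unadjusted p of 0.0130 and an adjusted p of 0.132 in the edgeR quasi-likelihood test. For KO against WT the exact permutation test over mice gave p = 0.0286, the smallest that 3 mice against 4 allow.

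Dusp6, the cytoplasmic phosphatase specific for ERK at chr10:99263231-99267489, was the most abundant of the 3 phosphatase genes per length. Its levels were 16.2, 13.8 and 10.1 CPM in WT, 8.77, 8.86 and 10.1 CPM in Het, and 13.1, 10.9, 11.9 and 6.87 CPM in KO. The groups overlapped, with the lowest value in KO-2126 and the highest in WT-2404. The log2 fold change of KO against WT was -0.32 (SE 0.23, edgeR adjusted p = 0.411), and that of Het against WT was -0.53 (SE 0.25, edgeR adjusted p = 0.258). Dusp5, the nuclear phosphatase specific for ERK, at chr19:53529145-53541809, held 1.42, 1.31 and 1.35 CPM in WT and 1.05 to 1.92 CPM in KO. Its Het values, 1.49, 1.21 and 1.29 CPM, lay around those of WT, and its fold changes were near 0 (KO against WT 0.23, SE 0.36, edgeR adjusted p = 0.730). An antisense gene overlaps an exon of Dusp5 and another an exon of Phlda1, and whether counting used strand is not given in the sources used here, so reads of the 2 strands may be mixed at these genes.

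**Figure D1:**
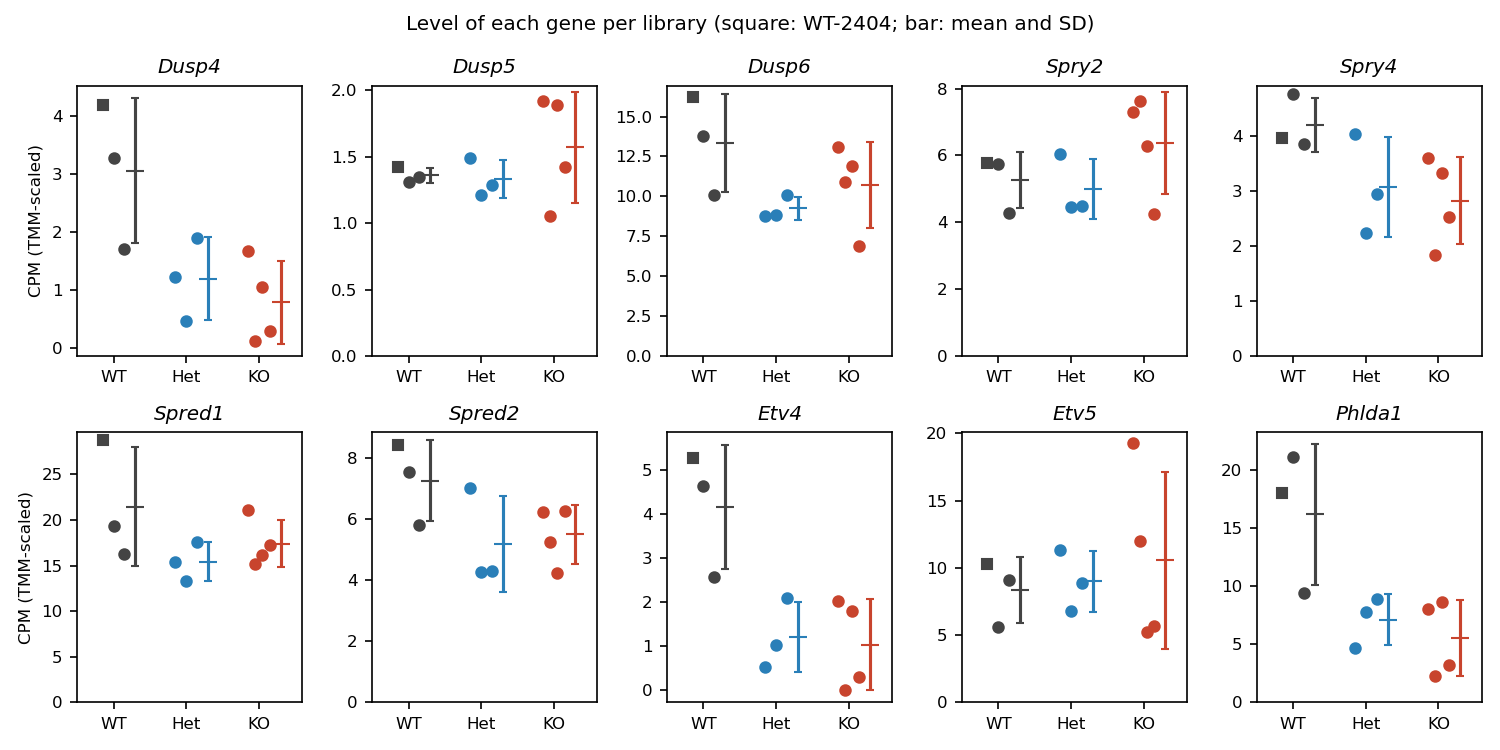
Level of each of the 10 genes in every library, in TMM-scaled CPM on a linear axis, by genotype. Points are mice, with WT-2404 as a square, and bars give the group mean and SD. Dusp4, Etv4 and Phlda1 lie lower in all 4 KO libraries than in the 3 WT libraries, as does Spry4 by a small margin, and the other 6 genes overlap.

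The Sprouty pair split. Spry2 and Spry4 both bind adaptor proteins and RAF and so damp receptor signals. Spry4 stood at 3.96, 4.76 and 3.86 CPM in WT, 4.04, 2.24 and 2.95 CPM in Het, and 3.59, 1.84, 3.32 and 2.53 CPM in KO. All KO values lay below all WT values, whereas 1 Het value lay within the WT range. Its log2 fold change of KO against WT was -0.55 (SE 0.30, edgeR adjusted p = 0.282, exact permutation p = 0.0571). Spry2, at chr14:105891947-105896819, gave 5.77, 5.74 and 4.29 CPM in WT, 6.05, 4.47 and 4.48 CPM in Het, and 7.30, 7.64, 6.27 and 4.25 CPM in KO. In 3 of the 4 KO libraries Spry2 was above the highest WT value and in the last it was below the lowest, so the groups overlapped (log2 fold change 0.27, SE 0.25, edgeR adjusted p = 0.524).

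The Spred genes, whose products bring the RAS inhibitor neurofibromin to the membrane, were close to each other in fold change. Spred1, at chr2:117121071-117182279, gave 28.8, 19.3 and 16.3 CPM in WT, 15.4, 13.3 and 17.6 CPM in Het, and 21.1, 15.2, 16.1 and 17.2 CPM in KO. WT-2404 alone lay above all other libraries. The log2 fold change of KO against WT was -0.31 (SE 0.21, edgeR adjusted p = 0.390) and moved to -0.03 without WT-2404. Spred2, at chr11:19924442-20024026, ranged from 5.82 to 8.44 CPM in WT, 4.29 to 7.02 in Het and 4.24 to 6.27 in KO (KO against WT -0.41, SE 0.25, edgeR adjusted p = 0.322).

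Etv4 and Etv5 encode closely related ETS transcription factors of the PEA3 group, both known outputs of ERK and of fibroblast growth factor signals. Etv4, at chr11:101769747-101785310, stood at 5.28, 4.65 and 2.57 CPM in WT and at 0.526, 1.03 and 2.09 CPM in Het. The KO libraries gave 2.04, 0, 1.80 and 0.303 CPM. All 7 libraries with a floxed allele lay below the lowest WT library. KO-2070 had 0 counts, which at its depth allows up to 0.395 CPM (3 counts), and KO-2126 had 3. The log2 fold change of KO against WT was -1.87 (SE 0.73), with an unadjusted p of 0.0257 and an adjusted p of 0.163 by edgeR, and that of Het against WT was -1.75 (SE 0.81, edgeR adjusted p = 0.254). The KO value is a fitted one and rests in part on a library with no count.

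Etv5, at chr16:22381313-22439570, did not follow. Its levels were 10.3, 5.58 and 9.13 CPM in WT, 11.3, 6.80 and 8.90 CPM in Het, and 19.3, 12.0, 5.26 and 5.66 CPM in KO. The KO libraries held both the highest and the lowest value of all 10, so the ranges overlapped throughout. The log2 fold change of KO against WT was 0.33 (SE 0.42, edgeR adjusted p = 0.657), and it turned to -0.16 without KO-2079, the highest library.

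Phlda1 encodes a pleckstrin homology domain protein whose transcript rises with ERK activity, and at chr10:111506286-111508649 it was the most abundant of the 10 genes per length in WT. It stood at 18.05, 21.1 and 9.44 CPM in WT, 4.65, 7.74 and 8.90 CPM in Het, and 8.04, 2.24, 8.62 and 3.23 CPM in KO. Every Het and every KO library lay below every WT library, although WT-2067 was close to the highest of them. The log2 fold change was -1.50 (SE 0.43) for KO against WT, with an unadjusted p of 0.00519 and an adjusted p of 0.119 by edgeR. It was -1.19 (SE 0.47, edgeR adjusted p = 0.211) for Het against WT. By DESeq2, with all 10 libraries, the log2 fold change of KO against WT was -1.55 and the adjusted p was 0.0253.

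Over the 10 genes, 7 were lower and 3 higher in KO than in WT, where 48.1% of all genes were lower, with a median log2 fold change of -0.36 beside 0.03 over the 13688 genes tested, and none passed an adjusted p of 0.05 in edgeR. None of the 13688 genes did (0%), while DESeq2 called 1011 genes, 7.41% of those it tested (5.27% lower), and Phlda1 among the 10. At an unadjusted p under 0.05, 3 of the 10 were lower (Dusp4, Etv4 and Phlda1) and 0 higher, where 13.9% of all genes were lower and 9.61% higher. The ranges of KO and WT did not overlap for 4 of the 10, all lower in KO, where 9.15% of all genes were lower and 6.74% higher without overlap. All 10 genes passed the filter on low counts, Dusp4 and Etv4 with 2 libraries of 4 above its level in KO and 2 of 3 in Het.

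For Het against WT, 9 of the 10 were lower and 1, Etv5, higher, where 49.7% of all genes were lower, with a median log2 fold change of -0.48 beside 0.0046 over all genes. None passed the adjusted threshold in edgeR, as for all genes tested (0%), nor in DESeq2, which called 391 genes (3.1%, with 1.93% lower). Phlda1 alone of the 10 was under 0.05 in the edgeR test before adjustment, where 19.8% of all genes were, 11.6% lower and 8.26% higher. Ranges did not overlap for 2 of 10, Etv4 and Phlda1, both lower, beside 13.5% of all genes lower and 11.3% higher. KO against WT and Het against WT share the 3 WT libraries, so they are not independent of each other. Between KO and Het, 4 genes were lower and 6 higher, where 48.5% of all genes were lower, from -0.51 (Dusp4) to 0.35 (Spry2) on the log2 scale. None of those 10 had an unadjusted p under 0.05 in edgeR (0.752% of all genes had) or ranges apart (1.16% lower and 1.3% higher of all genes), and none of the genes tested passed the adjusted threshold in edgeR (0%) or DESeq2.

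**Figure D2:**
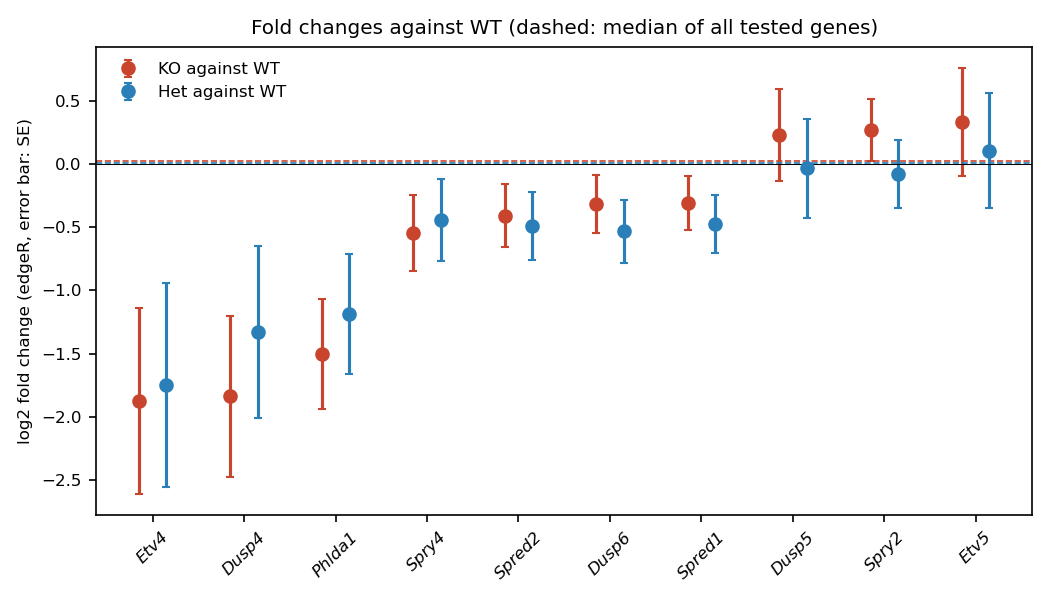
Log2 fold changes of the 10 genes for KO and Het against WT from the edgeR fit over all 10 libraries, with standard errors as bars. Dusp4, Etv4 and Phlda1 lie farthest below 0 against WT, at -1.84, -1.87 and -1.50 for KO.

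Levels compared between genes need a correction for length, here CPM per kilobase of annotated exons. In WT the order was Phlda1 (8.31), Dusp6 (4.78), Spred1 (3.16), Spry2 (2.52), Etv5 (2.07), Etv4 (1.74), Spred2 (1.63), Dusp4 (1.12), Spry4 (0.882) and Dusp5 (0.550). The ranges of neighbours in this order overlapped, except for Spry4 and Dusp5. In KO the order began with Dusp6 (3.83), Spry2 (3.05) and Phlda1 (2.84), and Dusp4 (0.289) and Etv4 (0.432) stood last, below Dusp5 (0.635). Neighbours overlapped in KO too, except on either side of Spred2. In Het, Phlda1 (3.64) and Dusp6 (3.31) led and Etv4 (0.505) and Dusp4 (0.438) were again last. Neighbours in Het overlapped except for Dusp6 and Spry2, Etv5 and Spred2, and Spred2 and Spry4.

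Ratios between related genes within a library do not depend on how that library is scaled, and they were added after the genes of each family were seen to differ. The log2 ratio of Dusp4 to Dusp5 averaged 1.07 ± 0.64 (SD, n = 3) in WT and -1.39 ± 1.07 (SD, n = 4) in KO, and the ranges did not overlap. The difference of -2.46 had an exact permutation p of 0.0571, and 0.114 after adjustment over the 6 ratios examined. Dusp4 to Dusp6 differed by -1.94 and also did not overlap (exact permutation p = 0.0571, adjusted 0.114). The ratio of Spry2 to Spry4 was 0.54, 0.27 and 0.15 in WT and 1.02, 2.01, 0.91 and 0.74 in KO, on the log2 scale. All 4 KO ratios were above the WT ratios (difference 0.85, exact permutation p = 0.0571, adjusted 0.114). All 3 of these held their direction without WT-2404, at -2.22, -1.83 and 0.96. Without KO-2070, where Dusp4 had 1 count, the 3 differences were smaller, at -2.09, -1.39 and 0.57.

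The ratio of Etv4 to Etv5 differed by -3.06 between KO and WT but the ranges overlapped, KO-2124 lying within WT (exact permutation p = 0.0857, adjusted 0.129). It was -1.91 without KO-2070, where Etv4 had 0 counts and the ratio rests on the 0.5 added to each count. Dusp5 to Dusp6 (0.52, exact permutation p = 0.143) and Spred1 to Spred2 (0.12, exact permutation p = 0.486) overlapped. None of the 6 passed 0.05 after adjustment. Between Het and WT, the ratios of Spry2 to Spry4 (0.40) and of Etv4 to Etv5 (-2.01) did not overlap. The exact permutation p of both was 0.1, the smallest that 3 mice against 3 allow.

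**Figure D3:**
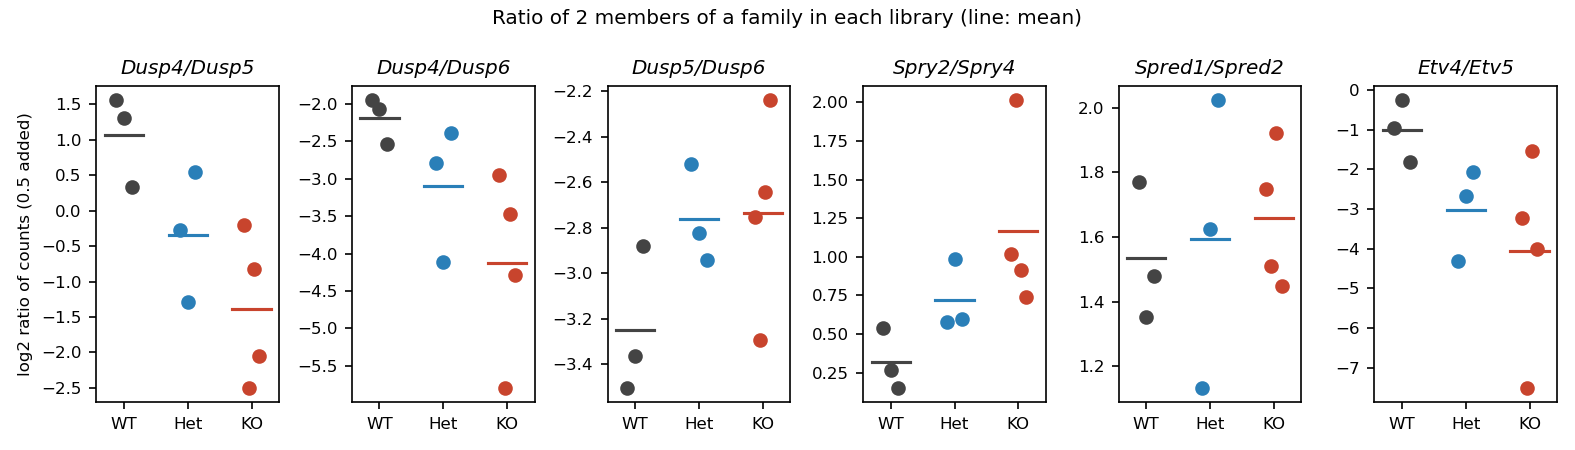
Log2 ratio of the counts of related genes within each library, with 0.5 added to each count, by genotype; points are mice and lines are group means. The Dusp4 ratios are lower and the Spry2 to Spry4 ratio higher in all 4 KO libraries than in the 3 WT libraries, and the Spred1 to Spred2 ratio overlaps.

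The 10 genes were also set against the share of gene counts from digestive enzymes, since WT-2404 and WT-1860 held the lowest shares. Pearson's r of log2 CPM with that share was negative for all 10 genes over the 10 libraries, from -0.02 (Etv5) to -0.85 (Spred1). The relation was not computed over all genes. The counts given here therefore have no share of all genes beside them and do not show a trait particular to the 10. None passed a permutation test after adjustment over the 10 (lowest adjusted p = 0.0566, for Dusp6 and Spred1), whereas Spearman's rho passed for Dusp4, Spry4, Etv4 and Phlda1 (adjusted permutation p = 0.0320 each) and for Dusp6 (adjusted permutation p = 0.0471). With Het-2042 left out 3 genes passed by Pearson's r, with KO-2079 or KO-2124 left out 2, and with KO-2070 or KO-2126 left out 1. Without WT-2404 and WT-1860, the 2 libraries farthest from the median share, 8 of 10 r were negative and none passed (lowest adjusted permutation p = 0.202). Spred1 then fell from -0.85 to -0.25, so its relation rests on those 2 libraries. Over the remaining 8 libraries the most negative r was that of Dusp5, at -0.75 from -0.15 over all 10. Spry4 was at -0.65, Dusp4 at -0.64, Etv4 and Phlda1 at -0.62 and Dusp6 at -0.57, whereas Spry2 was at -0.22, Etv5 at 0.14 and Spred2, from -0.57, at 0.26.

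Markers of other cell types moved with the groups as well. The 10 fibroblast markers summed to 1306 to 4520 CPM in WT, 533 to 1016 in Het and 466 to 1165 in KO, and 9 of 10 were lower in KO than in WT, 7 of them at an unadjusted p under 0.05 in edgeR. The 10 myeloid markers summed to 451 to 1765 CPM in WT, 242 to 363 in Het and 143 to 511 in KO. All 10 were lower in KO than in WT, each at an unadjusted p under 0.05 in edgeR. The myeloid sums of KO and WT overlapped, however. Only 1 of the 10 myeloid markers had ranges apart, beside 9.15% of all genes lower without overlap. The 10 ductal markers summed to 4042 to 6593 CPM in WT, 2866 to 4106 in Het, which overlapped WT, and 2505 to 3581 in KO, 7 of 10 being lower in KO, all 7 at an unadjusted p under 0.05. Of the other lists, 9 of 9 lymphoid, 3 of 8 endothelial, 1 of 10 islet and 1 of 6 adipocyte markers were lower in KO than in WT. In that comparison 48.1% of all genes were lower, and 13.9% were lower at an unadjusted p under 0.05 in edgeR. No marker passed the adjusted threshold in edgeR, as for all genes tested (0%). No marker of these 7 lists was at 0 in every library. The part of these cells in the levels of Dusp4, Etv4 and Phlda1 was not tested. With the enzyme share as a covariate, the log2 fold changes of KO against WT were -1.21 for Dusp4, -1.34 for Etv4 and -1.13 for Phlda1, and 1 of 10 was lower at an unadjusted p under 0.05 (Phlda1, edgeR adjusted p = 0.869), beside 5.63% of all genes in either direction. For Het against WT under that covariate, Dusp4 moved from -1.33 to -0.64, Etv4 from -1.75 to -1.14 and Phlda1 from -1.19 to -0.77, and 0 of 10 were at an unadjusted p under 0.05 in edgeR, beside 3.72% of all genes.

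**Figure D4:**
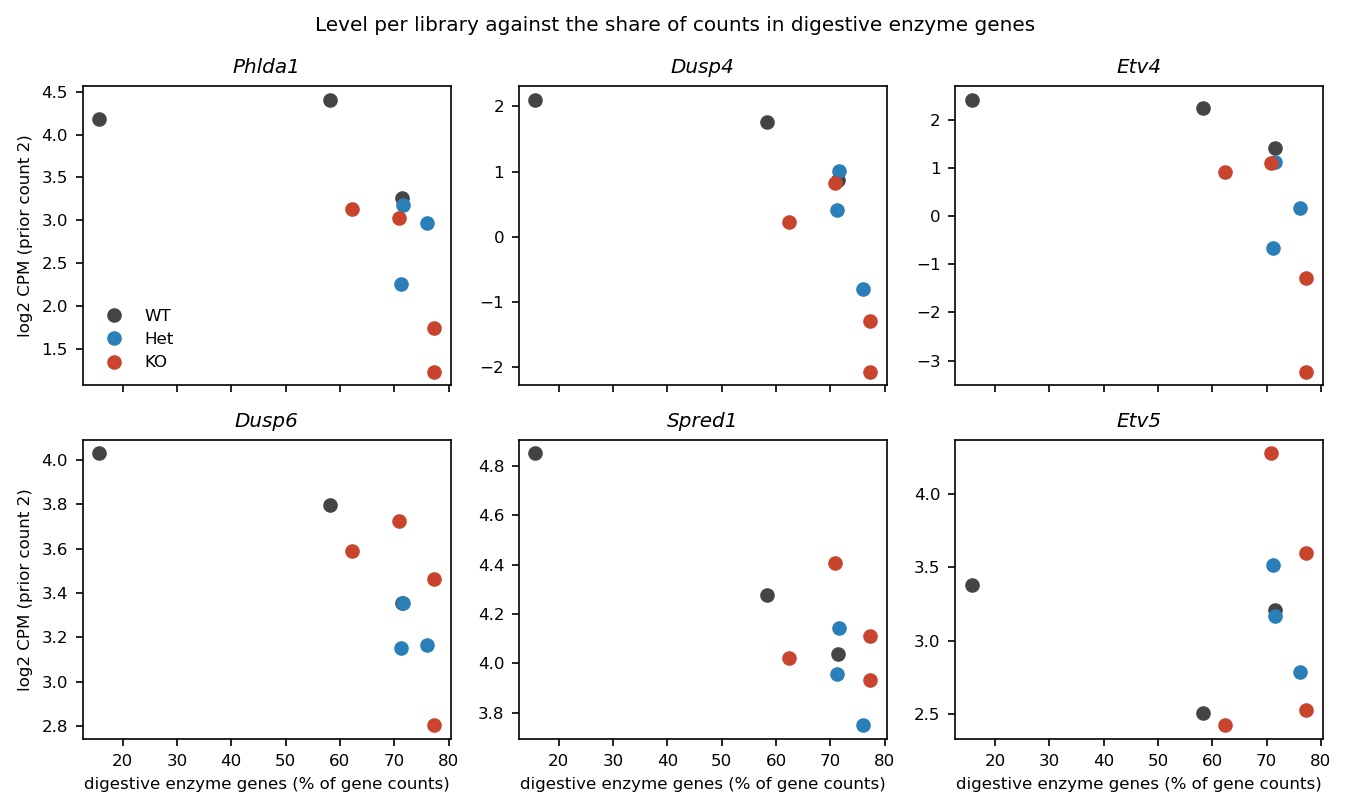
Levels of Phlda1, Dusp4, Etv4, Dusp6, Spred1 and Etv5 (log2 CPM) against the percent of gene counts from digestive enzyme genes, 1 point a library, coloured by genotype. WT-2404 stands alone at 15.7%, and the other 9 libraries lie between 58.3% and 77.3%.

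Without WT-2404, the direction of all 10 genes for KO against WT was as before, and 1 of 10 instead of 3 had an unadjusted p under 0.05, beside 9.42% of all genes in place of 23.5%. Phlda1 was then at -1.39 (unadjusted p = 0.0166, edgeR adjusted p = 0.509), Etv4 at -1.64 (edgeR adjusted p = 0.537) and Dusp4 at -1.51 (edgeR adjusted p = 0.534). Without WT-2067, the WT library with the highest enzyme share, edgeR called 1932 of 14172 genes, 1051 of them lower. Of the 10, 1 was called, Phlda1 (edgeR adjusted p = 0.0320). At an unadjusted p under 0.05, 3 of the 10 were then lower, beside 32.5% of all genes in either direction. The choice of scaling set the level of all genes. Scaled by library size alone, the median of all genes was itself -1.17 on the log2 scale for KO against WT, all 10 genes were lower and 5 passed the adjusted threshold in edgeR, as did 20.7% of all genes. For Het against WT 6 passed, beside 22.8% of all genes. Relative to that median, Dusp5, Spry2 and Etv5 stayed above 0 and the other 7 below, as with TMM scaling.

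**Figure D5:**
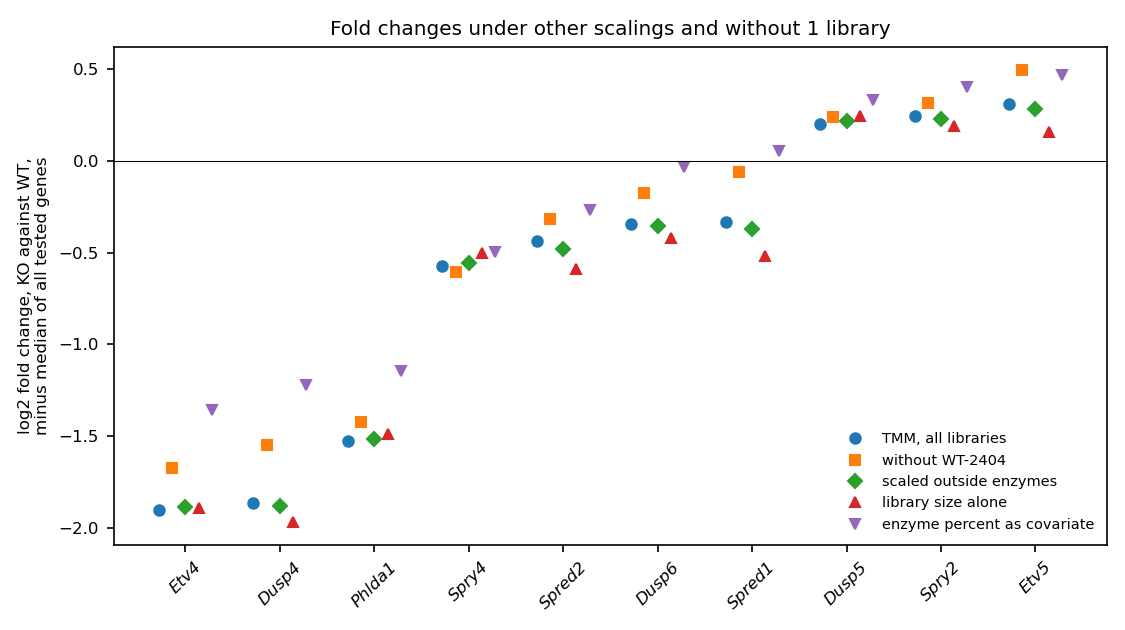
Log2 fold change of KO against WT for each of the 10 genes under each scaling or model, given relative to the median of all genes under the same setting. Dusp4, Etv4 and Phlda1 stay lowest under each setting shown.

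A longer list of other feedback and output genes of ERK held 23 genes, 20 of them tested (Spry3, Egr3 and Fosl1 had too few counts). In KO against WT, 15 were lower and 5 higher, with a median log2 fold change of -0.55, and none passed the adjusted threshold in edgeR. At an unadjusted p under 0.05, 8 of the 20 were lower and 1 higher, beside 13.9% and 9.61% of all genes. The lower genes with the smallest p were Phlda3, a relative of Phlda1 (-1.39), Plaur, the urokinase receptor (-1.65), and Epha2, an ephrin receptor (-1.42). Of these, Plaur was below WT in every KO library, whereas Phlda3 and Epha2 overlapped. On the other side stood the transcription factor Myc (0.99, with KO above WT in every library, edgeR adjusted p = 0.128), Errfi1, an inhibitor of the EGF receptor (1.10, overlapping), and the phosphatase Dusp2 (0.65, overlapping). In Het against WT, 16 of the 20 were lower, with 7 lower at an unadjusted p under 0.05, beside 11.6% of all genes, and 0 past the adjusted threshold in edgeR. The lowest p there belonged to Hbegf, an EGF receptor ligand, at -1.38.

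The 4 phosphatases that prefer JNK and p38 gave a median log2 fold change of 0.22 for KO against WT, with none past the adjusted threshold in edgeR. Dusp1, an early stress response gene, was at 1.15 (edgeR unadjusted p = 0.0353), against -0.86 for Dusp10, -0.28 for Dusp16 and 0.71 for Dusp8. KO and WT overlapped for all 4. The fold changes of Dusp1 and Dusp4 had opposite signs. Among 22 genes of the cascade from adaptors to ERK and its kinases, 12 were lower and 10 higher in KO, with a median of -0.07 and 0 past the adjusted threshold in edgeR. At an unadjusted p under 0.05, 3 of the 22 were lower and 1 higher, shares no larger than the 13.9% and 9.61% of all genes. The 3 lower genes were Nras, a RAS gene (-0.78), Rps6ka1, a kinase activated by ERK (-0.65), and Mapk3, which encodes an ERK (-0.43). The higher gene was the adaptor Gab1 (0.45). KO was below WT in every library for Nras and Rps6ka1 and above it for Gab1, whereas Mapk3 overlapped.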

How the data were processed

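The authors deposited raw counts per gene for each library. RNA from pulverised frozen tissue was made into stranded mRNA libraries, per the labels' protocols. DRAGEN, STAR, Cufflinks and mm10 are named, with no role, in the submitters' processing notes. The counting tool, annotation and strand setting are not given in the sources used here. Part of the genotype that all groups share is not reported here.

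2 rows name no gene (2.59% to 8.71% and 0.101% to 0.584% of all counts, these rows included) and were left out. edgeR 4.0.16 (R 4.3.3) kept 13688 genes by its filter at a minimum count of 10. Counts were scaled by TMM and 1 quasi-likelihood model with a mean per genotype was fitted to all 10 libraries. Tests were two-sided, with Benjamini-Hochberg adjustment over all genes tested and a threshold of 0.05. DESeq2 1.42.0 was an alternative, and so were other scalings and filters, the enzyme share as covariate and leaving out each library. Exact permutation tests over mice were run in R for single genes, adjusted over the 10 genes in each comparison, and in Python 3.11.15 for ratios. Correlations over all 10 libraries used 100000 resamples, and SciPy 1.17.1 adjusted the p of ratios and correlations. Exons came from GENCODE M21, and gene coordinates and promoters from RefSeq, all on the mm10 assembly. All 10 genes were named. From each pathway list, up to 3 genes a direction and comparison with the smallest p were named. The genes, lists and tests were chosen with earlier results of these data known. Each library is a separate mouse. Libraries of a group differed by far more than sampling noise (chi-square per degree of freedom 26.5 to 988).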

Additional observations from a re-analysis of the deposited data

How the results depend on the processing

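With library size alone, the all-gene medians moved to -1.17 (KO against WT), -1.36 (Het against WT) and 0.17 (KO against Het). Under it 2835 genes, 5 of them among the 10, passed for KO against WT (median of the 10 genes -1.68), and 3125 and 6 for Het against WT (median -1.97). Dusp5 (-0.92), Spry2 (-0.98) and Etv5 (-1.01) then turned lower for KO against WT, and Etv5 (-1.32) for Het against WT. For KO against Het, Spry4 (0.10), Etv4 (0.21) and Phlda1 (0.023) turned higher. With counts scaled outside the enzyme genes (all-gene medians -0.25, -0.36 and 0.09), Dusp5 (-0.037) and Spry2 (-0.025) for KO against WT, Etv5 (-0.26) for Het against WT and Etv4 (0.0051) for KO against Het turned. With the enzyme share as covariate, Spred1 for KO against WT (0.065), and Dusp5 (0.090) and Spry2 (0.075) for Het against WT turned. DESeq2 called 1011 genes for KO against WT, 719 of them lower and 1 of them among the 10 (Phlda1), and 391 for Het against WT. The cause of these differences between settings was not tested.

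Leaving out 1 library at a time, the genes called for KO against WT ran from 0 to 1932, those among the 10 from 0 to 1, and their median from -0.51 to -0.21. For Het against WT the genes called ran from 0 to 1160 and the median of the 10 from -0.63 to -0.35. The highest values of both counts came without WT-2067, where 14172 genes were tested. For KO against Het the median ran from -0.11 (without KO-2079) to 0.23. The direction changed for Etv5 in KO against WT (-0.16 to 0.56), for Dusp5 (-0.12 to 0.030), Spry2 (-0.23 to 0.0071) and Etv5 (-0.11 to 0.30) in Het against WT, and for Dusp4 (-1.09 to 0.0090), Spry4 (-0.28 to 0.14), Spred2 (-0.043 to 0.36), Etv4 (-0.58 to 0.55) and Etv5 (-0.26 to 0.46) in KO against Het. Of the 10 genes, 0 to 3 passed the permutation test of Pearson's r with the enzyme share, which was not computed over all genes. The r of Etv5 ran from -0.13 to 0.35. No paired analysis was possible because the mouse numbers are not shared between groups. Low counts limit Dusp4, with 1 to 31 counts in the Het and KO libraries, and Etv4, with 0 to 39.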

Other observations

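Receptor genes upstream of the cascade were not of 1 direction. Of 11 receptor tyrosine kinase genes, 10 were tested (Erbb4 had too few counts), 6 lower and 4 higher in KO than in WT, and none passed the adjusted threshold in edgeR. Egfr, the EGF receptor, averaged 8.54 ± 3.02 CPM (SD, n = 4) in KO and 17.7 ± 4.84 CPM (SD, n = 3) in WT, with ranges apart (log2 fold change -1.04, edgeR adjusted p = 0.116). Fgfr4, a fibroblast growth factor receptor, averaged 1.67 ± 0.80 CPM in KO and 4.21 ± 0.55 CPM in WT, also apart (-1.32, edgeR adjusted p = 0.121). Igf1r, the receptor of insulin-like growth factor, was apart in the other direction (0.64, edgeR adjusted p = 0.119). At an unadjusted p under 0.05, these 3 of the 10 were the only receptor genes of the list in edgeR, a share close to the 23.5% of all genes.

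The genes closest in pattern to each of the 10, by Pearson's r of log2 CPM over the 10 libraries, are given as a description, since all share the same libraries and scaling. Etv4 was closest to Onecut2 (r = 0.996) and Mboat1 (0.995). Phlda1 was closest to S100a6 (0.990) and Akr1b8 (0.987), and Dusp4 to Filip1l (0.983) and F5 (0.980). Spry4 was closest to Ralgps2 (0.947), Dusp6 to Rarg (0.970) and Spred1 to Tiam1 (0.959). For Spry2 the highest r was 0.878 (1700037C18Rik), for Etv5 0.918 (Atxn7l3b), for Spred2 0.919 (Wdfy2) and for Dusp5 0.933 (Pde4b). Among the 10 genes, Etv4 and Phlda1 had r = 0.97, Dusp4 and Etv4 0.93, Dusp4 and Phlda1 0.90, and Etv4 and Etv5 -0.12.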
